A study of Mus musculus with 158 samples.

Results

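Neurons of the mouse cortex were taken either from acute brain slices or from primary cultures, and the RNA of each cell was sequenced and counted per gene. Cells belong to the comparison where their labels name a neuron, the cortex and one of these sources. They comprise 42 of the 158 libraries of the series. Libraries of the same cell were summed, which left 35 of 149 cells, 22 from slices and 13 from cultures. All carry the strain label C57/BL6/N and no treatment, and each was drawn into a patch pipette. The slice cells carry a title letter that the labels do not explain, P in 16 cells, F in 5 and RS in 1. The age of the cultures at collection was 6 days for 3 cells, 10 days for another 3, 13 days for 4 and 15 days for 3. Base calls were made with v1.8.4 for 8 slice and 6 cultured cells and with v2.17 for 16 slice and 7 cultured cells, and the slice cells P1 and F1 have a library of each version. The cultured cells of 6 and 15 days are those of v1.8.4 and the cultured cells of 10 and 13 days those of v2.17, so that within the cultures version and age cannot be told apart. The labels give no age for the slice cells and name no animal, donor or culture in either group. Each group therefore counts as 1 sample, and no test, p-value or standard error is given.

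Primary cultures are started from dissociated tissue, usually of embryonic or newborn brain, and the neurons regrow axons and dendrites in the dish. Growing neurons are known for high levels of tubulins and of growth-cone proteins such as those of the stathmin, doublecortin and collapsin response mediator families. Neurons in a slice have grown within the brain. As cortical neurons mature they lay down synapses and change the subunits of their glutamate receptors, GABA receptors and ion channels. The cortex holds excitatory pyramidal neurons, which release glutamate, and inhibitory interneurons, which release GABA. Some interneurons fire at high rates with the help of potassium channels of the Kcnc family.

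The windows around the transcription start are shown for 5 genes whose levels differed between the groups, as described later: 3 higher in slice cells (Nrgn, Unc80 and Fos) and 2 higher in cultured cells (Marcksl1 and Tuba1a). Each window runs from 250 bases before the start to 50 bases after it and is printed in the direction of transcription, from RefSeq on GRCm38.p6. Capitals mark 3 motifs searched on both strands, the GC box GGGCGG, the TATA box TATAAA and TGACG, the core of the cAMP response element.
Nrgn (chr9:37552696-37552995, minus strand): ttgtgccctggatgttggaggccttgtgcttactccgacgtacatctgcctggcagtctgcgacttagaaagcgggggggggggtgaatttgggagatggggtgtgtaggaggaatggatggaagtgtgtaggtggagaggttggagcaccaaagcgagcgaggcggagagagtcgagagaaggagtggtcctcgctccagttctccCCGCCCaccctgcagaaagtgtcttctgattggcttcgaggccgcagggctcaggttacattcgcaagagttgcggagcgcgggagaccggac
Unc80 (chr1:66467684-66467983, plus strand): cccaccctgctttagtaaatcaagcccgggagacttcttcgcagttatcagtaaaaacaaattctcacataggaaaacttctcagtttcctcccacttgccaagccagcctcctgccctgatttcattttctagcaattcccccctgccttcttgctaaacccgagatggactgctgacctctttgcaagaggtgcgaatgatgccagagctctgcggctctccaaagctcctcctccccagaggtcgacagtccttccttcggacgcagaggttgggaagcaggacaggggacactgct
Fos (chr12:85473640-85473939, plus strand): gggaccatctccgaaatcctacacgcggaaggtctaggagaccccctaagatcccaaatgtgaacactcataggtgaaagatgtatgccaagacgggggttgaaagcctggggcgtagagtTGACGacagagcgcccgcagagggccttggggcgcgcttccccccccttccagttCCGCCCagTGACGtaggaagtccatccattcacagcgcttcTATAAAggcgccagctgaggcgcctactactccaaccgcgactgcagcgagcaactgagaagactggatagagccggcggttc
Marcksl1 (chr4:129513331-129513630, plus strand): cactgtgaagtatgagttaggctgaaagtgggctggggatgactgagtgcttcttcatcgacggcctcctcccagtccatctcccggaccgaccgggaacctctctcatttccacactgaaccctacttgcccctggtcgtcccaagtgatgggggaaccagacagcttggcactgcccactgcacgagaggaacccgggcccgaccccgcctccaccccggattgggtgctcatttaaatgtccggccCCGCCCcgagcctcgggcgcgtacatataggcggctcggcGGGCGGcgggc
Tuba1a (chr15:98953452-98953751, minus strand): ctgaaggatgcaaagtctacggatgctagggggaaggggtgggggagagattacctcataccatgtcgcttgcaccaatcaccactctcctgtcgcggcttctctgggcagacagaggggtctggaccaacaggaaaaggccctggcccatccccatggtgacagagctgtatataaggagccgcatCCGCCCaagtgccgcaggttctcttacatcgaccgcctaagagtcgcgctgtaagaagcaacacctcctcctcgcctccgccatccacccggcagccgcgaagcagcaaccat

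The window of Nrgn held 1 GC box, that of Tuba1a 1 and that of Marcksl1 2. The window of Fos, an immediate early gene, held 1 GC box, 1 TATA box and 2 TGACG cores. The window of Unc80 held none of these letters. Over all 32851 windows of 27025 genes, 35.7% held a GC box, 13.6% a TATA box and 20.8% a TGACG core. Of the 12 genes named in each direction by the rule described below, 10 of those higher in slices matched the table, with 13 windows, of which 6 held a GC box, 1 a TATA box and 2 a TGACG core. Of those lower in slices 7 matched, with 7 windows, of which 5 held a GC box, none a TATA box and 1 a TGACG core. These matches describe letters and were not tied to the binding of any factor.

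Levels are summed counts of all cells in a group, scaled to 1000000 counts (CPM), with exact Poisson 95% intervals in parentheses for the genes described in full. A gene was called detected in a cell with at least 5 counts after the cell had been thinned to 1000000 counts, and shares of cells described in full have Clopper-Pearson 95% intervals. Both kinds cover counting error only, of reads for a level and of the number of cells for a share. The reads carry no molecular identifiers, the cells of a group are not replicates of its condition, and cells of a group differed by far more than the counting error of reads. Genes named by the rule given under the processing were ranked by detection, so their shares of cells are a description. Log2 ratios are of slice CPM plus 1 over culture CPM plus 1, and a gene counts as higher or lower in slices when its ratio is at least 1 in size. No direction is read from a smaller ratio or median. Totals ran from 1800651 to 16251918 counts in slice cells (median 5744561) and from 2953361 to 34292582 in cultured cells (median 13026965). At the common depth 313 to 6172 genes were detected in slice cells (median 1808) and 1174 to 6855 in cultured cells (median 4460).

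Both groups carried neuronal RNA, with exceptions. Of 20 neuron markers, between 2 and 20 were detected in slice cells (median 11.5) and between 7 and 19 in cultured cells (median 13). Of 20 astrocyte markers, 1 to 17 were detected in either group, with a median of 6 in both. In slice cells P14, P16 and P32 and cultured cells J8_23, J5_18 and 1 of 13 days a larger share of the astrocyte than of the neuron markers was detected. Slice cells P27 and P21 had equal shares, but summed levels of 95104 and 25127 CPM for astrocyte markers, against 4656 and 21.3 CPM for neuron markers. Another cultured cell of 13 days had 6594 against 4357 CPM, with fewer astrocyte than neuron markers detected. These further cells are not among those called richer in astrocyte markers below. Microglia markers, genes of the resident immune cells of the brain, set the groups apart further. Of 15 such markers slice cells had 0 to 15 (median 2) and cultured cells 0 to 9 (median 0), and their summed level ran from 0.699 to 25492 CPM in slice cells (median 1212) and from 0 to 2112 CPM in cultured cells (median 0.674). At least 3 were detected in 9 P cells, in the RS cell and in 3 cultured cells, and at most 2 in any F cell. The 3 cultured cells are all those of 15 days. Values without the cells with at least 3 such markers therefore also change the mix of culture ages and of title letters. Itgam, a microglial integrin, was at 0 in all cultured cells. In slice cells P14, P21, P27 and F11 the 50 highest genes held 86.84%, 64.13%, 95.75% and 62.13% of the counts. P27 had 313 genes detected. These cells were kept. Values without them, or without any single cell, are given where they end a call or turn its direction.

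**Figure D1:**
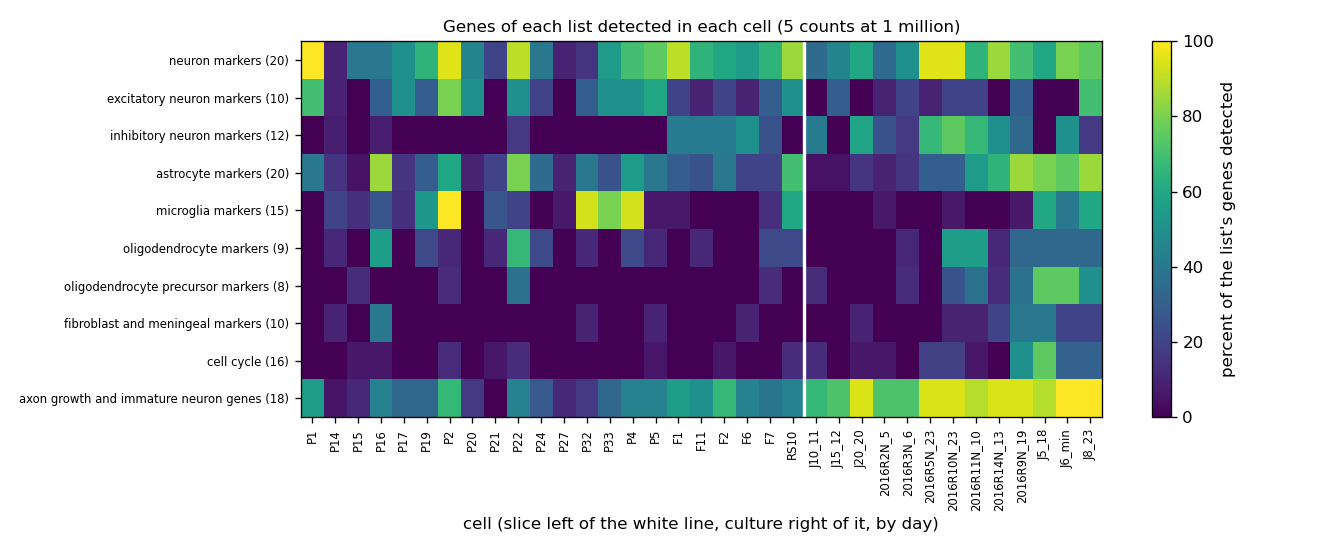
Percent of each gene list detected in each cell at the common depth, as a colour scale, with cells as columns and slice cells left of cultured cells. Rows are gene lists, with neuron, astrocyte and microglia markers among them. Neuron markers reach 2 to 20 of 20 in slice cells and 7 to 19 in cultured cells, and up to 15 of 15 microglia markers are found in a slice cell against up to 9 in a cultured cell.

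Across the 13741 genes measured in slice and cultured cells, 3395 were higher in slices (24.7%) and 5090 lower (37%), with a median log2 ratio of -0.24. Detection differed more in 1 direction: a larger share of slice than of cultured cells had the gene detected for 20.8% of genes, and a smaller share for 70.9%. No gene had every slice cell above every cultured cell or every slice cell below. Counts for gene groups are read against these shares. Scaling by TMM factors or by DESeq2 size factors moved the median ratio of all genes to -0.04 or 0.01.

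**Figure D2:**
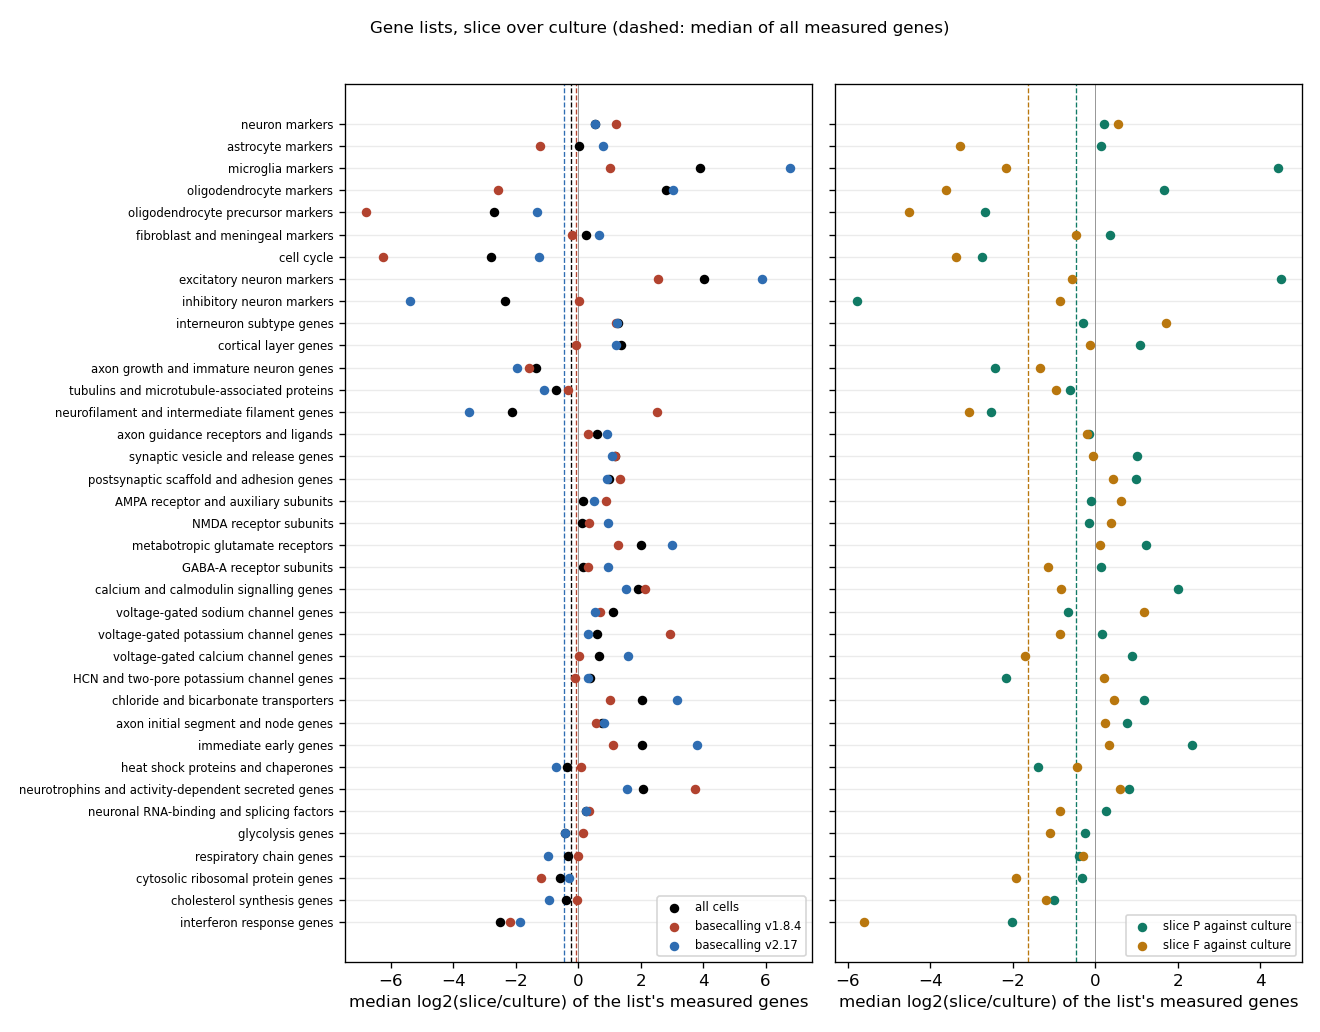
Median log2 ratio of slice over culture for each gene list (horizontal axis), with a marker for all cells, for v1.8.4, for v2.17, for P titles and for F titles, and a line at the median of all measured genes. Excitatory neuron markers stand at 4.02 over all cells and at -0.57 for F titles, where the line of all measured genes is at -1.62. Axon growth genes stand at -1.34 over all cells.

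Axon growth and immature neuron genes were lower in slices. Of 18 measured members 11 were lower and 1 was higher, with a median log2 ratio of -1.34, and slice cells had the smaller share with detection for 18 of 18. A slice cell had 0 to 12 of the 18 detected (median 7.5) and a cultured cell 12 to 18 (median 17). With TMM or DESeq2 scaling the median was -0.99 or -0.86, below the fold of 2. It was -1.79 without the 4 cells dominated by 50 genes, -1.90 without the cells richer in astrocyte markers and -2.09 without the cells with at least 3 microglia markers.

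Sox11, a transcription factor of immature neurons, ranged from 0 to 3685 CPM in slice cells (median 0.386) and from 67.99 to 5366 CPM in cultured cells (median 604). All cultured cells were high, most slice cells were near 0, and slice cell P4 alone supplied 84.3% of the slice counts and overlapped the cultured range. The summed level of Sox11 was 107 CPM (105 to 108) in slices and 918 CPM (914 to 923) in culture, a log2 ratio of -3.09, with detection in 6 of 22 and 13 of 13 cells. Nrep, a protein linked to neuronal regeneration, was at 96.9 CPM in slices and 1654 CPM in culture. Slice cells had it detected in 5 of 22 cases and cultured cells in 13 of 13. Dcx, the microtubule-binding protein doublecortin, was at 195 CPM in slices and 936 CPM in culture and was detected in 6 of 22 and 12 of 13 cells. Members of the collapsin response mediator family, which steer growth cones, were also lower: Dpysl3 with a log2 ratio of -6.58 and no slice cell detected, Dpysl5 with -6.78 and Crmp1 with -1.18.

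Not all growth genes were lower. Dclk1, a kinase related to doublecortin, ranged from 0.228 to 6474 CPM in slice cells (median 464) and from 0.119 to 1156 CPM in cultured cells (median 407). The ranges overlapped throughout, and the log2 ratio of Dclk1 was 1.29. Gap43, a growth-cone protein, had a ratio of 0.32, and Basp1, a related membrane protein, one of 0.71. Sox4, a relative of Sox11, had a ratio of 0.39, but 97% of its slice counts came from cell F11, and it was detected in 4 of 22 slice cells, against 12 of 13 cultured cells.

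Tubulins and microtubule-associated proteins, which build the skeleton of axons and dendrites, had 8 of 18 members lower in slices and none higher (median -0.70), and for 17 of 18 the share of cells with detection was smaller in slices. Tuba1a, the main alpha-tubulin of young neurons, ranged from 0.495 to 12977 CPM in slice cells (median 861) and from 5090 to 98735 CPM in cultured cells (median 14598). Most slice cells lay below the lowest cultured cell, with some overlap. The summed level of Tuba1a was 2827 CPM (2819 to 2836) in slices and 17956 CPM (17938 to 17974) in culture (log2 ratio -2.67), and within v1.8.4 no slice cell reached the lowest cultured cell. Tubb2b, a beta-tubulin of developing neurons at chr13:34127008-34130354 on GRCm38, ranged from 0 to 889 CPM in slice cells (median 0.302) and from 145 to 17892 CPM in cultured cells (median 1352). Among slice cells only F7 overlapped the cultured range, and it supplied 85% of the slice counts, the log2 ratio being -7.48 without it. With a log2 ratio of -4.95, Tubb2b was found in 6 of 22 slice and 13 of 13 cultured cells. Mapt, which encodes tau, had a ratio of -1.94 (-3.25 without the cells with at least 3 microglia markers) and the neuronal beta-tubulin Tubb3 one of -2.48, whereas the dendritic protein Map2 had one of 0.14. Tubulin genes have near-identical paralogs, so the split of reads among Tuba1a, Tubb2b and their copies is uncertain.

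Of 12 genes named as lower in slices, Cd24a, a surface glycoprotein of young neurons at chr10:43579169-43584265, was at 3.30 CPM (3.02 to 3.60) in slices and 319 CPM (316.9 to 321.8) in culture. It ranged from 0 to 56.3 CPM in slice cells (median 0) and from 0.461 to 1594 CPM in cultured cells (median 162). Cd24a was detected in 1 of 22 slice cells (4.55%, 0.115% to 22.8%) and 12 of 13 cultured cells (92.3%, 63.97% to 99.8%), with a log2 ratio of -6.22. Marcksl1, an actin-regulating substrate of protein kinase C whose start window is printed above, ranged from 0 to 376 CPM in slice cells (median 0.0883) and from 22.6 to 794 CPM in cultured cells (median 211). It was detected in 4 of 22 and 13 of 13 cells, so that a few slice cells lay inside the cultured range. Cnn3, an actin-binding calponin, stayed at or below 0.937 CPM in slice cells against a median of 118 CPM in cultured cells, with detection in 0 of 22 slice cells (0%, 0% to 15.4%) and 11 of 13 cultured cells (84.6%, 54.5% to 98.1%). Fabp5, a fatty acid binding protein, was detected in 5 of 22 slice cells, against 13 of 13 cultured cells, and Kif21b, a kinesin motor, in 4 of 22 and 12 of 13. The cadherin Cdh4, Palm, a membrane protein, and the adaptor Traf4 were detected in no slice cell and in 9 of 13 cultured cells each. Nkain1, with 0.00657 CPM in slices and 62.2 CPM in culture, was detected in no slice cell and 10 cultured cells. The other named genes were Hn1 (-4.03), Ccdc124 (-4.56) and Yeats4 (-2.89), given as log2 ratios. Without slice cell P2 the ratio of Hn1 was -6.46 and that of Yeats4 -8.34, and Yeats4 had -1.69 without cultured cell J10_11. Without the cells with at least 3 microglia markers the ratio of Fabp5 was -8.01, against -2.42 with all cells.

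Intermediate filaments depended on single cells. Of 6 measured genes 2 were higher and 4 lower in slices, with a median of -2.12, and without 1 cultured cell of 13 days the median was 1.69. That cell supplied 98.8% of the cultured counts of Nefh, the heavy neurofilament chain, whose log2 ratio was -2.58 with it and 3.13 without it. Nefl, the light chain, was higher in slices (2.35), as was the medium chain Nefm (3.24). Vim and Nes, filaments of progenitor and glial cells, were lower, with log2 ratios of -4.01 and -7.36.

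**Figure D3:**
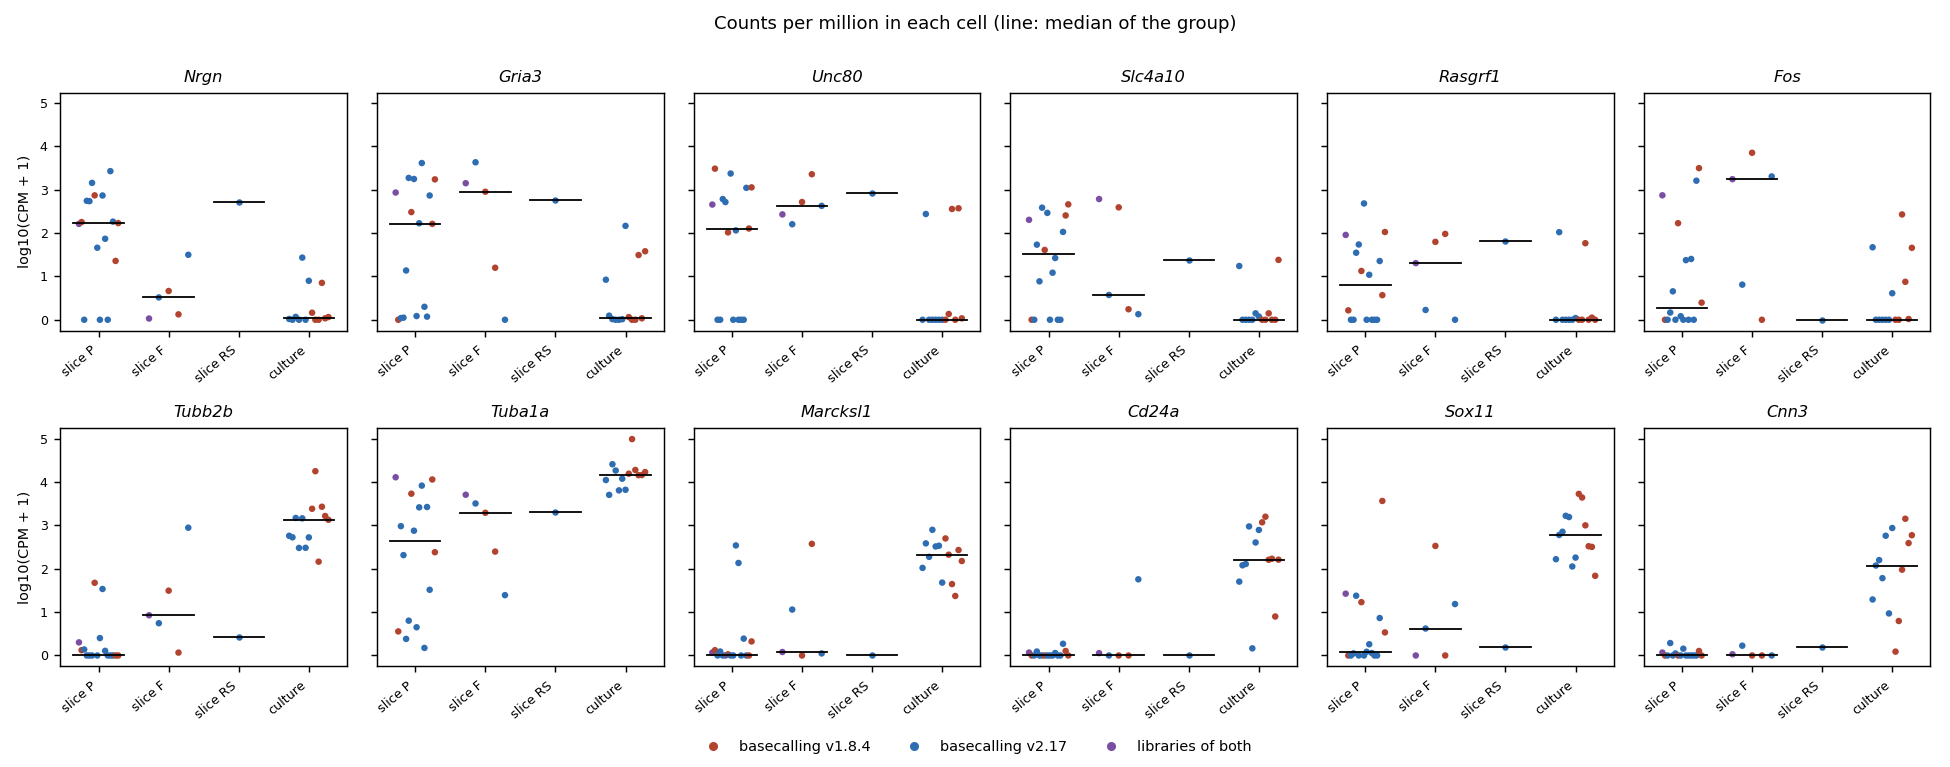
Level of growth, tubulin, receptor and synaptic genes in each cell, slice cells left of cultured cells, on a log axis of CPM plus 1, with a bar at the median of each group. Tubb2b lies at 145 CPM or above in all 13 cultured cells and below that in all slice cells but 1, whereas Nrgn, Gria3 and Unc80 have the higher medians in slice cells.

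Genes of synaptic function were higher in slices in several groups. Of 12 genes named as higher, Nrgn, the gene of neurogranin, a calmodulin-binding protein of dendritic spines, ranged from 0 to 2691 CPM in slice cells (median 118) and from 0 to 26.2 CPM in cultured cells (median 0.0806). Slice cells were spread from 0 to high levels, and no cultured cell was high. The summed level of Nrgn was 381 CPM (378 to 384) in slices and 2.62 CPM (2.40 to 2.85) in culture, a log2 ratio of 6.72, or 3.83 without the cells with at least 3 microglia markers. It was detected in 16 of 22 slice cells (72.7%, 49.8% to 89.3%) and 2 of 13 cultured cells (15.4%, 1.92% to 45.5%). Gria3, an AMPA receptor subunit at chrX:41400819-41678601, ranged from 0 to 4310 CPM in slice cells (median 236.1) and from 0 to 146 CPM in cultured cells (median 0.0806). The cultured cells all lay in the lower part of the slice range, and the log2 ratio of Gria3 was 5.87 (8.81 without the cells richer in astrocyte markers), with detection in 15 of 22 and 3 of 13 cells. Among slice cells Gria3 was detected in 10 of 16 P cells and 4 of 5 F cells.

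Unc80, a subunit of the sodium leak channel complex that sets resting excitability, ranged from 0 to 3070 CPM in slice cells (median 347) and from 0 to 372 CPM in cultured cells (median 0). Most cultured cells had no count of Unc80, and it was detected in 16 of 22 slice cells, against 3 of 13 cultured cells (log2 ratio 3.06). Slc4a10, a sodium bicarbonate transporter at chr2:62046472-62326743, was at 150 CPM (148 to 152) in slices and 3.38 CPM (3.14 to 3.64) in culture and was detected in 14 of 22 and 2 of 13 cells. Rasgrf1, a calcium-dependent exchange factor for Ras, had a log2 ratio of 2.58 and was detected in 12 of 22 and 2 of 13 cells. Fam126b had a ratio of 2.97 and Arhgap26, a GTPase-activating protein, one of 3.88. The potassium channel subunit Kcnf1 (5.22), the G protein subunit Gng13 (4.95, and 2.29 without the cells with at least 3 microglia markers) and the ubiquitin ligase Herc4 (5.17) were detected in 9, 8 and 8 slice cells. Hrh3, the histamine H3 receptor, was detected in 8 of 22 slice cells, against 0 of 13 cultured cells, with 85.3% of its slice counts from cell P27. Cx3cr1, the fractalkine receptor of microglia, was detected in 8 of 22 slice cells, against 0 of 13 cultured cells and is a microglia marker rather than a neuronal gene. Its ratio was 8.45, and 0.90 without the cells with at least 3 microglia markers.

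Among 19 measured genes of synaptic vesicles and release, 11 were higher and 5 lower in slices, with a median of 1.17, which was 0.22 without slice cell P15. Snap25, a SNARE protein of vesicle fusion, ranged from 0.495 to 4969 CPM in slice cells (median 839) and from 0.910 to 784 CPM in cultured cells (median 136). The groups overlapped, with the highest slice cells above all cultured cells, and the log2 ratio of Snap25 was 2.11. The calcium sensor Syt7 had a ratio of 1.78 and the vesicle protein Sv2b one of 4.18. The SNARE protein Vamp2 went the other way, at 7.39 CPM in slices and 245 CPM in culture, as did Cplx2, a complexin (-3.51), and Syn1, a synapsin (-1.90). For Vamp2 the ratio was -1.43 in v1.8.4 and -5.88 in v2.17. Of 17 postsynaptic scaffold and adhesion genes 8 were higher and 3 lower (median 0.99). Dlgap1, a scaffold protein of the postsynaptic density, ranged from 0 to 4536 CPM in slice cells (median 1229) and from 0 to 957 CPM in cultured cells (median 67.7), a log2 ratio of 2.77.

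Receptor families were mixed. Of 11 AMPA receptor genes 4 were higher and 4 lower (median 0.16). Beside Gria3, Gria4 had a log2 ratio of 3.27, with 71% of its slice counts from a single cell, Gria2 one of 1.23 and Gria1 one of 0.16. Of 7 NMDA receptor subunits 1 was higher and 2 were lower (median 0.12). Grin2b, a subunit abundant in young neurons, was at 244 CPM (241.9 to 247) in slices and 57.9 CPM (56.8 to 58.9) in culture, and was detected in 15 of 22 and 6 of 13 cells. Grin1, the obligatory subunit, had a ratio of -1.95. Grin2a, the subunit that gains weight in mature cortex, was detected in 1 of 22 slice cells, against 0 of 13 cultured cells. Of 7 metabotropic glutamate receptors 5 were higher and 1 lower (median 2.02), among them Grm5 with a ratio of 2.02. Of 12 GABA-A receptor subunits 5 were higher and 2 lower (median 0.16). Gabra5, a subunit found mostly outside synapses, had a ratio of -0.38.

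Calcium and calmodulin signalling genes, which act downstream of these receptors, had 12 of 19 members higher and 2 lower in slices (median 1.92). Camk2a, the alpha chain of calmodulin-dependent kinase, ranged from 0 to 1260 CPM in slice cells (median 44.8) and from 0 to 98.7 CPM in cultured cells (median 0.358). Its log2 ratio was 2.76, that of the calcineurin subunit Ppp3ca 2.15 and that of the calcium release channel Itpr1 4.41. Pcp4, a calmodulin-binding peptide, was lower, with a ratio of -2.99 and detection in 6 of 22 and 10 of 13 cells. The median of these genes was -0.82 for F cells against culture and 2.01 for P cells against culture, comparisons that share the cultured cells. Over all measured genes the median was -1.62 for F cells and -0.45 for P cells.

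Ion channel genes differed by member. Of 7 sodium channel genes 4 were higher and 2 lower in slices (median 1.13, -0.50 without slice cell F6, and 0.90 to 0.95 without slice cell P5 or either of 2 cultured cells of 10 and 13 days). Scn1a, of interneuron axons among other places, had a log2 ratio of 3.98 (6.46 without 1 cultured cell of 13 days) and Scn8a, the channel of mature nodes and initial segments, one of 2.21. Scn3a, a channel of developing brain, had a ratio of -0.94, which was 0.17 without cultured cell J6_min, and the auxiliary subunit Scn3b one of -3.07. Of 19 potassium channel genes 7 were higher and 6 lower (median 0.60, -0.28 without slice cell P17 and -0.46 without the cells with at least 3 microglia markers). Kcnip4, a subunit that binds Kv4 channels, had a ratio of 6.07 and was detected in 7 of 22 and 0 of 13 cells, and Kcnd3, a Kv4 channel, had one of -3.20. Of 12 calcium channel genes 5 were higher and 1 lower (median 0.68), with Cacna1a, the P/Q-type channel of nerve terminals, at 4.64. Among 7 chloride and bicarbonate transporters 4 were higher and 1 lower (median 2.03, and 1.05 without slice cell P20). Slc12a5, the chloride exporter that rises in maturing neurons, had a ratio of 0.999, just short of the cut of 1. Leaving out single cells moved it from 0.79 (slice cell F1) to 1.47 (cultured cell J6_min). The importer Slc12a2 had a ratio of 0.67, which was -0.20 without slice cell P22.

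Immediate early genes, which neurons switch on within minutes of activity or stress, had 10 of 16 members higher and 3 lower in slices (median 2.05). Fos ranged from 0 to 7146 CPM in slice cells (median 2.51) and from 0 to 268.6 CPM in cultured cells (median 0). It was high in a minority of slice cells, F2, P4, F7, F1 and P33 among them, and near 0 in most cells of both groups. The summed level of Fos was 748 CPM (743 to 752) in slices and 18.3 CPM (17.7 to 18.9) in culture, with detection in 9 of 22 and 4 of 13 cells. Fosb (5.21), Junb (2.92) and the phosphatase Dusp1 (3.32) were also higher, whereas Egr1 had a ratio of 0.98 and Arc one of 0.19. Bdnf, a neurotrophin induced by activity, had a ratio of 5.04, with 76.3% of its slice counts from 1 cell. Without the cells with at least 3 microglia markers the median of the immediate early genes was 0.93, and without cultured cell J20_20 it was 3.22. The part of microglial RNA in this result was not tested.

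The P and F cells were then set against the cultured cells separately. For P cells 3056 of 13184 genes were higher (23.2%) and 5433 lower (41.2%), and with DESeq2 scaling 4076 were higher and 4368 lower. For F cells 2052 of 12042 genes were higher (17%) and 6928 lower (57.5%), and with DESeq2 scaling 3921 were higher and 5092 lower. Both comparisons use the same 13 cultured cells, and their values stand side by side. The median log2 ratio of all measured genes was -0.45 for P cells and -1.62 for F cells, and list medians are read against these. Excitatory neuron markers had 8 of 10 members higher and 1 lower for P cells (median 4.50), and 2 of 10 higher and 4 lower for F cells (median -0.57). Inhibitory neuron markers had 0 of 9 higher and 9 lower for P cells (median -5.79), and 3 of 11 higher and 5 lower for F cells (median -0.86). For F cells the medians of both lists lie above that of all genes. A P cell had 0 to 2 of the inhibitory markers detected (median 0), an F cell 3 to 6 (median 5) and a cultured cell 0 to 9 (median 5). A P cell had 0 to 8 of the 10 excitatory markers (median 4), an F cell 1 to 3 (median 2) and a cultured cell 0 to 7 (median 1).

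Slc17a7, the vesicular glutamate transporter of cortical excitatory neurons, ranged from 0 to 1226 CPM in P cells (median 45.5), from 0 to 4.92 CPM in F cells (median 0) and from 0 to 38.5 CPM in cultured cells (median 0). It was detected in 10 of 16 P cells, 1 of 5 F cells and 2 of 13 cultured cells. Nrgn was detected in 13 of 16 P cells, 2 of 5 F cells and 2 of 13 cultured cells, with log2 ratios of 7.23 for P cells and 1.07 for F cells. Genes named as higher in P cells and lower in F cells than in culture included Arpp21, a calmodulin-regulating phosphoprotein, detected in 12 of 16 P cells, 0 of 5 F cells and 5 of 13 cultured cells. Over all slice cells the ratio of Arpp21 was 1.502, and 0.23 without the cells with at least 3 microglia markers. The sulfotransferase Chst1 and the guanine deaminase Gda followed it, at 327 and 298.8 CPM in P cells, 0.132 and 0.638 CPM in F cells and 16.8 and 31.9 CPM in culture. Enpp2 (autotaxin), Exd2 and Klf9 completed that set and were detected in 9 of 16 P cells and in no F cell. The ratio of Klf9 over all slice cells was 1.38, 0.43 without slice cell P16, and -2.59 without the cells with at least 3 microglia markers. For Arpp21 and Klf9 alike, the cells with at least 3 microglia markers include 9 P cells and no F cell. The mix of letters thus changes as well, and the part of either was not tested.

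Gad1, which makes GABA, ranged from 18.9 to 8713 CPM in F cells (median 2357), from 0 to 605 CPM in P cells (median 0.234) and from 0.209 to 6449 CPM in cultured cells (median 23.4). All F cells had it, P cells were at or near 0 with few exceptions, and cultured cells spanned both. Gad1 was detected in 5 of 5 F cells, 2 of 16 P cells and 7 of 13 cultured cells, with log2 ratios of 1.48 for F and -4.98 for P cells. Gad2, the second GABA-making enzyme, had a ratio of 1.08 over all slice cells, which was -0.68 without F1. Sar1b, a secretory pathway GTPase, likewise had 1.26 and -0.73 without F1. The chloride transporter Clcn3 and the exchange factor Dock9 were also among the genes named as higher in F and lower in P cells. Tac1, the precursor of substance P, was at 1282 CPM in F cells, 0.0191 CPM in P cells and 0.0143 CPM (0.00296 to 0.0419) in culture and was detected in 3 F cells only. Transcription factors of migrating and young interneurons were lower in slices: Dlx1 was detected in 1 of 22 slice cells, against 9 of 13 cultured cells and Sp9 in 0 and 5.

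The potassium channels Kcnc1 and Kcnc2, which permit high firing rates, separated the F cells from culture. Kcnc1 ranged from 130.6 to 1324 CPM in F cells (median 557), from 0 to 700 CPM in P cells (median 0.213) and from 0 to 103 CPM in cultured cells (median 0.135). Kcnc2 ranged from 50.5 to 3031 CPM in F cells (median 1480), from 0 to 115.1 CPM in P cells (median 0.0699) and from 0 to 44.7 CPM in cultured cells (median 0.0759). In both genes every F cell stood above every cultured cell, which held for 2 of 12042 genes (0.0166%), and both were picked out after their values had been seen. The reverse held for 8 genes (0.0664%), Nfib, a transcription factor of developing cortex, and the radial glial protein Fabp7 among them. For Nfib the highest F cell was at 19.6 CPM and the lowest cultured cell at 85.3 CPM. For Fabp7 these values were 0 and 0.27 CPM, a gap near the floor. Pvalb, the calcium buffer of many fast-spiking interneurons, was detected in 2 of 5 F cells, 1 of 16 P cells and 1 of 13 cultured cells. For P cells only Tubb2b had all slice cells below all cultured cells (0.00758% of 13184 genes), at 0 to 46.6 CPM against 145 to 17892 CPM.

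**Figure D4:**
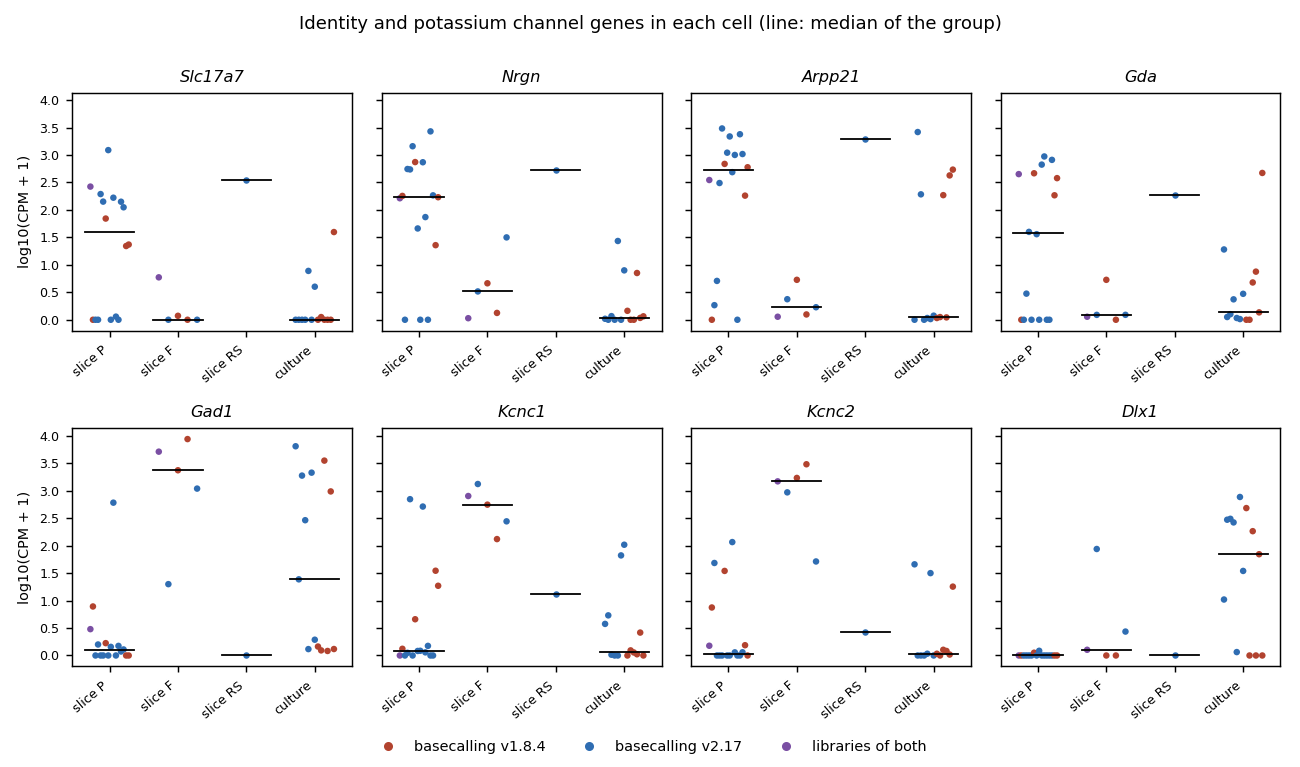
Level of identity and potassium channel genes in each cell, with P, F and RS cells left of cultured cells, on a log axis of CPM plus 1. Gad1 is detected in 5 of 5 F cells and in 2 of 16 P cells, Nrgn and Slc17a7 mainly in P cells, and Kcnc1 and Kcnc2 stand above every cultured cell in all F cells.

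Within base-calling versions the comparison differed. In v1.8.4, 3427 of 10362 genes were higher in slices (33.1%) and 3677 lower (35.5%), with a median of -0.07. Without the cells richer in astrocyte markers 2263 were lower, and without those with at least 3 microglia markers 1509, with medians of 0.96 and 1.73. The cells with at least 3 microglia markers include all cultured cells of 15 days, so that only cultured cells of 6 days remain without them. Culture age and microglia markers cannot be told apart there. Without single cells the median ran from -0.52 (P2) to 0.30 (J8_23). In v2.17, 3236 of 12313 were higher (26.3%) and 5230 lower (42.5%), with a median of -0.44, and with DESeq2 scaling 4122 were higher and 4252 lower. Over the 9851 genes measured in both, the ratios correlated weakly (Pearson r 0.221, Spearman rho 0.219, across genes, which are not independent replicates). Slice cells P1 and F1 gave a library to each side. Of these genes 1220 were higher in both versions, which is a part of 3257 in v1.8.4 and 2733 in v2.17, and 1941 were lower in both, of 3473 and 4373. Opposite calls were made for 1152 genes higher in v1.8.4 and lower in v2.17 and for 708 the other way.

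Growth genes kept their direction in both, with medians of -1.58 in v1.8.4 and -1.97 in v2.17, as did excitatory markers (2.56 and 5.88), synaptic vesicle genes (1.16 and 1.09) and calcium signalling genes (2.13 and 1.54). Inhibitory markers had medians of 0.01 and -5.39, potassium channels 2.94 and 0.30, and intermediate filament genes, Vim and Nes included, 2.52 and -3.50. Every slice cell lay below every cultured cell for 12 genes in v1.8.4 (0.116%), among them Tuba1a, Tubb2b, Cd24a and the actin-severing protein Cfl1. Every slice cell lay above for 5 (0.0483%), among them Nefl and Slc24a2, a sodium calcium exchanger. For Nefl the lowest slice cell was at 0.324 CPM and the highest cultured cell at 0.311 CPM, a gap near 0. For Slc24a2 these values were 1.30 and 0.135 CPM. In v2.17 every slice cell lay below every cultured cell for 17 genes (0.138%). Among them were Sox11 (0 to 27.01 CPM in slice cells against 112.4 to 1672 CPM in cultured cells), the cyclin Ccnd2 and the actin-binding Tmsb10. None lay above in v2.17. No gene was separated in both versions. Genes named for opposite directions were, in the order v1.8.4 and v2.17, Fbxo28 (5.25 and -2.39), Thrap3 (1.26 and -3.43), Ap1b1 (5.17 and -1.45) and Myh10, a non-muscle myosin (1.74 and -2.21). The other 4 were Dock1 (-8.29 and 4.45), Polr3e (-5.09 and 6.21), Mcoln1 (-6.32 and 6.02) and Bhlhe22, a transcription factor of cortical neurons (-9.63 and 7.30). Over all cells the ratio of Bhlhe22 was -2.62, with -6.16 without slice cell P24, -1.20 without cultured cell J10_11 and 0.87 against the cultured cells of 13 and 15 days only.

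**Figure D5:**
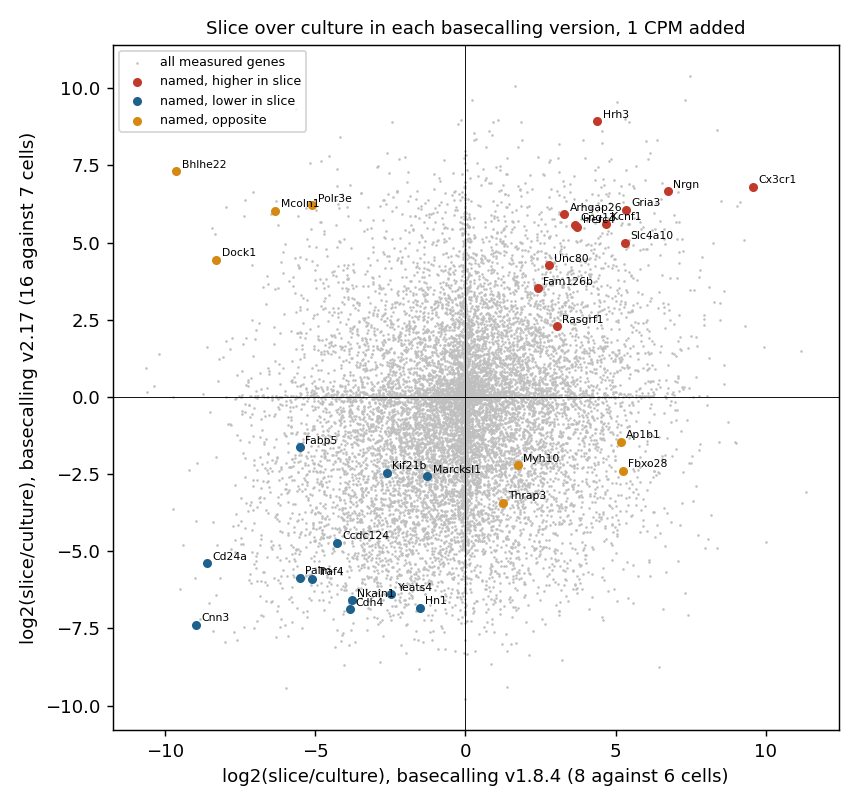
Log2 ratio of slice over culture within v1.8.4 (horizontal axis) and within v2.17 (vertical axis) for the genes measured over all cells, with named genes marked. The points scatter broadly (Pearson r 0.221 over the 9851 genes measured in both). Nrgn and Gria3 lie high on both axes, Cd24a and Cnn3 low on both, which the rule that named them required.

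Markers of dividing and other cells were lower in slices in part. Of 15 cell cycle genes 10 were lower and 1 higher (median -2.79), with a summed level of 0.324 to 1121 CPM in slice cells (median 3.30) and 1.19 to 5122 CPM in cultured cells (median 250.1). The median was -0.92 without cultured cell J5_18 and -0.11 without the cells richer in astrocyte markers. Top2a, a topoisomerase of dividing cells, was detected in 0 of 22 slice cells, against 3 of 13 cultured cells, with 92.7% of its cultured counts from 1 cell. Oligodendrocyte precursor markers had 6 of 8 members lower (median -2.71), with Pdgfra detected in 0 of 22 slice cells, against 4 of 13 cultured cells. Oligodendrocyte markers had 5 of 7 higher (median 2.81, and 1.29 without slice cell F11), but the median was -2.37 without the cells with at least 3 microglia markers. Mbp, the myelin basic protein, was at 1157 CPM in slices and 121.6 CPM in culture. Microglia markers had 14 of 15 higher (median 3.91, and 0.77 without the cells with at least 3 of these markers), for P cells 15 of 15 (median 4.43) and for F cells 3 of 12 (median -2.15). The median of all measured genes was -1.62 for F cells. Fibroblast and meningeal markers had a median of 0.24, so no direction is read for them as a group. Their summed level ran from 0 to 15155 CPM in slice cells (median 1.03) and from 0 to 2840 CPM in cultured cells (median 102.1). Among them Tagln, a smooth muscle and fibroblast protein, was at 0.0263 CPM in slices and 257 CPM in culture, with 7 of 13 cultured cells detected.

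Culture age was described for the genes above, with 3 or 4 cells per age and version changing with age. Sox11 was at 3978, 581, 446 and 267 CPM in cultured cells of 6, 10, 13 and 15 days, and Cd24a at 1040, 332.1, 198 and 96.9 CPM. Both were highest at 6 days, and at 15 days both were still above their slice levels of 107 and 3.30 CPM. Tubb2b was at 6320, 604, 946 and 1942 CPM and followed no such order. Nrgn stayed between 0.207 and 6.78 CPM at all 4 ages. Gfap, an astrocyte filament, was at 0, 12.8, 116.5 and 208 CPM in cultured cells of these ages, and was detected in 1 of 22 slice cells, against 7 of 13 cultured cells. The cultured cells richer in astrocyte markers are J8_23 and J5_18 of 15 days and 1 of 13 days. The part of these cells in the Gfap values was not tested.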

How the data were processed

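The authors deposited unnormalized read counts, whole numbers for 21956 genes in each of 158 libraries. Per the submitters' processing notes, base calls were converted with bcl2fastq 1.8.4 or bcl2fastq2 2.17, reads aligned with STAR and counted with HTSeq against mm10 (GRCm38); strand setting and annotation: not given in the sources used here, so reads of overlapping or antisense genes may be shared. Per the labels, libraries were made with a TruSeq Stranded kit from polyA RNA. In 7 cells a pair of libraries was made; the pair correlated with r of 0.945 to 0.999 across genes, while other libraries reached 0.621 at most, and was summed; for the pair titled J6 no label says that it is 1 cell. Cells with libraries of both versions entered each version with that library.

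Counts were summed over cells and divided by group totals. A gene was measured if the groups together held at least 10 of its counts, spread over at least 3 cells. Cells were thinned at random (seed 7), so a cell near 5 counts may fall on either side. Genes at 0 in a group were also set to a floor of 3 counts over the group, which moved no list median by more than 0.0921. No doublet caller was run.

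Named genes reached 10 CPM in either group, with log2 ratios past the fold of 2. The 12 per direction had to keep their sign in the mean of cells, in both versions and for P and F titles alone, and were ranked by the smaller of the differences in detection of the versions. The 6 per direction with opposite signs for P and F titles and the 4 per direction with opposite signs between versions were ranked by the difference in detection. Predicted genes were passed over, and a few members are not reported here. Other members of the 38 gene lists are examples. The choice of this comparison, the lists and the rules were made with earlier results of these data known.

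The script was tested on simulated data. Alternatives used edgeR 4.0.16 (TMM) and DESeq2 1.42.0 size factors on R 4.3.3, other pseudocounts, filters and weights of cells, and left out cells. Other steps used Python 3.11.15 with numpy 2.4.6, pandas 2.3.3 and scipy 1.17.1.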

Additional observations from a re-analysis of the deposited data

How the results depend on the processing

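No paired analysis was possible because no comparison has a test and the cells share no animal, donor or culture label. Each group is 1 sample, so counts and medians were recomputed as values. Most kept their direction and their side of the fold of 2. The median of the axon growth genes was -0.990 with TMM and -0.855 with DESeq2 scaling, that of the microglia markers 0.767 and of the immediate early genes 0.934 without the cells with at least 3 microglia markers. In v1.8.4 the number of genes lower in slices was 2263 without the cells richer in astrocyte markers and 1509 without those with microglia markers, against 3677. The cells with microglia markers include all cultured cells of 15 days. For F cells 3921 genes were higher with DESeq2 scaling, against 2052. Signs turned for the interferon response genes (0.137 without the cells richer in astrocyte markers), the oligodendrocyte markers (-2.374) and Klf9 (-2.594) without the cells with microglia markers, and Bhlhe22 (0.874 with cultured cells of 13 and 15 days only). The alternative without the cells of at least 60% of counts in 50 genes was added after the data had been seen. Leaving out each cell in turn, the number of genes higher in slices ran from 3227 to 3604 and of genes lower from 4744 to 5374. Signs turned in such runs for Gad2 (-0.684 to 2.530), Sar1b (-0.729 to 1.771), Nefh (-3.417 to 3.126), the sodium channel genes (-0.498 to 1.273) and the intermediate filament genes (-2.795 to 1.687). The cause was not tested in any of these. At the common depth a gene near 5 counts may be missed in any cell.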

Other observations

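Housekeeping groups were detected less often in slice cells, with small differences in level. For all 21 cytosolic ribosomal protein genes the share of cells with detection was smaller in slices, with 1 higher, 5 lower and a median log2 ratio of -0.58, and the same held for 28 of 29 respiratory chain genes (1 higher, 8 lower, median -0.31). It held for 70.9% of all measured genes, whose median ratio was -0.24. The median of the respiratory chain genes was 0.03 with TMM and 0.17 with DESeq2 scaling. Of 18 glycolysis genes 4 were higher and 6 lower (median -0.44, 0.04 with DESeq2 scaling and 0.38 without the cells richer in astrocyte markers). Gapdh, a glycolytic enzyme, was at 44.5 CPM in slices and 261 CPM in culture. Of 12 heat shock proteins and chaperones 2 were higher and 4 lower (median -0.36, and 0.12 with DESeq2 scaling), with the chaperone Hspa8 at 636 CPM in slices and 1633 CPM in culture. Of 18 cholesterol synthesis genes 4 were higher and 8 lower (median -0.39). Of 12 interferon response genes none was higher and 9 were lower (median -2.50). That median was -1.03 without cultured cell J5_18, 0.14 without the cells richer in astrocyte markers and -4.70 without those with at least 3 microglia markers.

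Genes of cortical layers had 8 of 14 members higher and 4 lower in slices (median 1.37, 0.89 without slice cell P16 and 0.94 without slice cell F6). Among these members Bcl11b was detected in a smaller share of slice than of cultured cells, by 37.41 percentage points. Fezf2, a factor of deep-layer projection neurons counted with the excitatory markers, was detected in 4 of 16 P cells, 0 of 5 F cells and 0 of 13 cultured cells. Of 11 interneuron subtype genes 6 were higher and 3 lower (median 1.28, 0.41 without slice cell F7 and 0.53 without slice cell F1). Calb1, a calcium buffer, was detected in 3 of 5 F cells, 1 of 16 P cells and 0 of 13 cultured cells, and 99.9% of the cultured counts of the neuropeptide gene Vip came from 1 cell. Of 20 axon guidance genes 8 were higher and 4 lower (median 0.61), of 18 neuronal RNA-binding and splicing factors 6 and 4 (median 0.25, and -0.30 without the cells with at least 3 microglia markers), and of 8 genes of the axon initial segment and node 4 and 2 (median 0.76). Of 11 neurotrophins and activity-dependent secreted genes 8 were higher and 1 lower (median 2.07, and 1.34 without slice cell F1). Of 7 HCN and K2P channel genes 2 were higher and 3 lower (median 0.38, and -1.70 without slice cell F7).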
